A study of Rattus norvegicus with 138 samples.

Results

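The data are messenger RNA levels in the rostral ventrolateral medulla (RVLM) of female spontaneously hypertensive rats (SHRs, SHR/NHsd), compared between 24 and 8 wk of age. The comparison rests on 10 libraries, 5 per age and each from a different rat, out of 46 RVLM libraries and 138 libraries in the whole series. They are the libraries whose name ends in the number 1 in both ages, so that this number, whose meaning is not given in the sources used here, does not differ between the groups. The remaining rat of 24 wk has a library of number 2, which entered an alternative. SHRs are an inbred strain in which blood pressure rises after weaning, and the Wistar-Kyoto rat (WKY/NHsd) is its normotensive control strain. No rat was treated. Age and the rise in pressure pass together in SHRs, so they cannot be told apart within this strain, and the WKY rats of the same ages (2 libraries of 8 wk and 3 of 24 wk) are the only other measure of age here. The series also holds punches of the caudal ventrolateral medulla (CVLM) and of the solitary tract nucleus (NTS) from the same rats and the ages 10, 12 and 16 wk.

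The RVLM holds the neurons that drive sympathetic outflow to the heart and blood vessels, among them adrenergic neurons marked by the enzymes Th, Dbh and Pnmt. A punch of this region also takes in glia, vessels and a great deal of myelin, the membrane that oligodendrocytes wrap around axons. Myelin is rich in cholesterol and galactolipids, and since plasma cholesterol does not enter the brain, this cholesterol is made locally from acetyl-CoA by the sterol synthesis pathway. In bulk tissue, fewer cells of a type and less RNA per cell cannot be told apart.

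Reads assigned to genes numbered 9082087 to 10866099 per library at 8 wk (median 10487031) and 6737117 to 11816321 at 24 wk (median 10183188). The adrenergic markers were present in all 10 libraries, as were those of oligodendrocytes. In SHR 8 wk replicate 2 the adrenergic markers were far above the other libraries of that age, as given below, and without this library 25 genes were called in place of 30. Levels are given as CPM (read counts scaled to a common library total, with TMM scaling), and n is 5 per age unless stated. Differences are given as log2 fold changes (24 wk minus 8 wk) with an approximate standard error (SE). This SE was worked back from the test, as the size of the log2 fold change divided by the square root of its F statistic. Each p in the text is from edgeR's quasi-likelihood test, adjusted by Benjamini and Hochberg over all genes tested unless called unadjusted.

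Of 13411 genes tested, 30 (0.224%) were called at an adjusted p under 0.05 between 24 and 8 wk in the RVLM of SHRs. Of these, 22 (0.164%) were lower and 8 (0.0597%) higher at 24 wk. By the gene lists used here, 5 of the 22 that fell are in the list of mature myelin and 2 in that of sterol synthesis. Sirt2 is in the list of oligodendrocyte precursors and newly formed oligodendrocytes, and Col3a1 in those of collagens and leptomeninges. Of the 8 that rose, Qdpr is in the myelin and catecholamine lists. At an unadjusted p under 0.05 there were 788 genes (5.88%), 382 lower (2.85%) and 406 higher (3.03%). The libraries of the 2 ages did not overlap for 190 lower (1.42%) and 105 higher genes (0.783%). Over all genes the median log2 fold change was 0.03 and the median SE 0.19, with 45.2% of genes below 0 and 54.8% above.

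**Figure D1:**
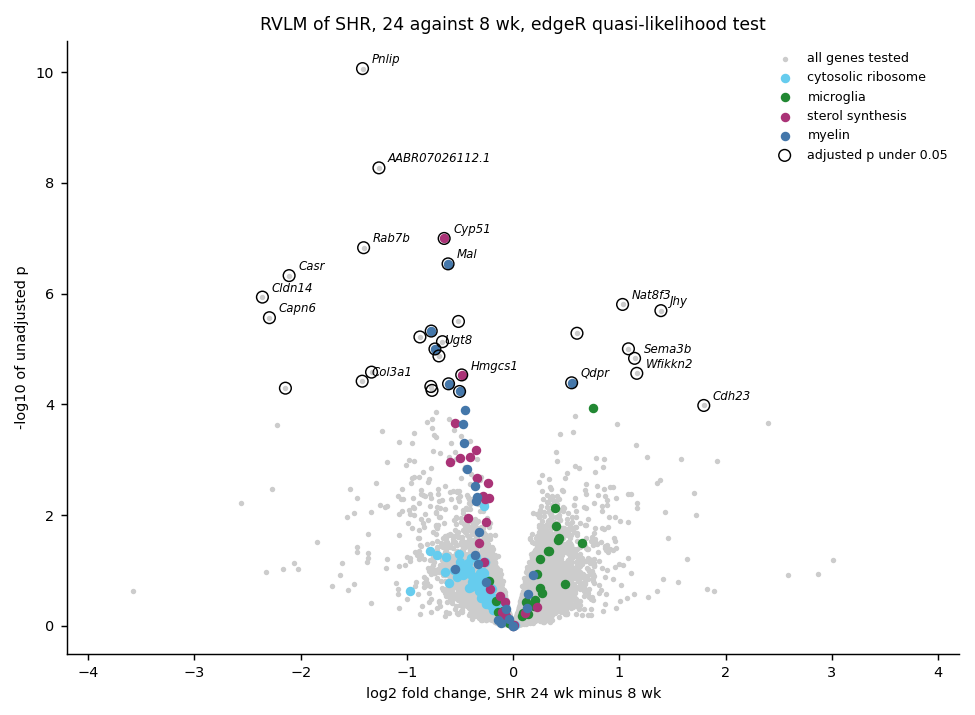
Each point is 1 gene of the 13411 tested, with the log2 fold change (SHR 24 wk minus 8 wk) on the x axis and -log10 of the unadjusted p on the y axis. Colors mark 4 gene lists, circles mark the 30 genes called, and 5 genes lie beyond the ends of the x axis; the myelin and sterol synthesis genes sit mostly left of 0.

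Most genes of mature myelin had lower levels at 24 wk, and 5 of them passed the test. Of 28 list members 27 were tested (Trf had no row under that symbol), 22 had a log2 fold change below 0 beside 45.2% of all genes, 5 were called lower and 1 (Qdpr) higher, and the median was -0.34. Mal (myelin and lymphocyte protein, ENSRNOG00000015445), a proteolipid of compact myelin, measured 881, 863, 851, 777 and 947 CPM in the 5 rats of 8 wk and 498, 492, 667, 535 and 633 CPM in those of 24 wk. Every library of 24 wk was below every library of 8 wk (-0.61 ± 0.09, adjusted p = 7.8e-04). Ugt8 (ENSRNOG00000009345), the enzyme that makes galactosylceramide, the main glycolipid of myelin, measured 538, 644, 559, 505 and 558 CPM in the 5 rats of 8 wk and 389.8, 295, 389, 278 and 331 CPM in those of 24 wk. Again the ages did not overlap, and the level at 8 wk was 1.67 times that at 24 wk (-0.74 ± 0.14, adjusted p = 0.00789). Cldn11 (ENSRNOG00000010263), which forms the tight junctions between myelin layers, measured 77.1, 103, 89.96, 93.5 and 89 CPM in the 5 rats of 8 wk and 42.2, 56, 62.9, 45.6 and 58.3 CPM in those of 24 wk (-0.77 ± 0.14, adjusted p = 0.0053). Mobp, a basic protein of compact myelin, measured 331, 478, 406, 397 and 389 CPM in the 5 rats of 8 wk and 203, 238, 317, 296 and 258 CPM in those of 24 wk, with the highest library of 24 wk just under the lowest of 8 wk (-0.61 ± 0.13, adjusted p = 0.0229).

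Outside the called members, 8 further myelin genes were lower at an unadjusted p under 0.05, which makes 13 of 27 beside 2.85% of all genes, and 8 of 27 were lower without overlap beside 1.42%. Cnp, an enzyme of noncompact myelin, had -0.46 ± 0.10 with an adjusted p of 0.0524, and Mbp, a main protein of compact myelin, had -0.34 ± 0.11 with overlapping ages (adjusted p = 0.411). Genes of the list near 0, chosen here after their values were seen, included Myrf (0.00 ± 0.22), the transcription factor that starts the myelin program, Opalin (-0.00 ± 0.10) and Ermn (-0.04 ± 0.11). The summed level of the list was 50202 to 62170.6 CPM at 8 wk and 39582.3 to 51363.7 CPM at 24 wk, so that the sums overlapped slightly.

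Qdpr, the reductase that regenerates tetrahydrobiopterin, the cofactor of Th, was the only member of the myelin list called higher. It measured 1575, 1510.0, 1400.5, 1311 and 1230.0 CPM in the 5 rats of 8 wk and 1947, 1792, 2262, 1973 and 2314 CPM in those of 24 wk. The lowest library of 24 wk was above the highest of 8 wk, and the level was 1.46 times that at 8 wk (0.55 ± 0.11, adjusted p = 0.0228).

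Other genes of oligodendrocytes and their lipids were called lower too. Sirt2, a deacetylase abundant in oligodendrocytes, measured 586, 554, 566, 527 and 541 CPM in the 5 rats of 8 wk and 332, 364, 450.4, 379.7 and 413 CPM in those of 24 wk, with no overlap (-0.52 ± 0.09, adjusted p = 0.00388). Elovl1, an elongase of very long chain fatty acids, measured 261, 279, 240.1, 219 and 205 CPM in the 5 rats of 8 wk and 155, 133, 172, 136 and 163 CPM in those of 24 wk, also with no overlap (-0.67 ± 0.12, adjusted p = 0.0066). Sirt2 was the only call among 20 genes of precursors and newly formed oligodendrocytes, a list whose median was -0.12, and 5 of the 20 were lower at an unadjusted p under 0.05, beside 2.85% of all genes. Among them, Gpr17, a receptor of committed precursors, had -1.23 ± 0.30, and Enpp6, a marker of newly formed oligodendrocytes, had -0.76 ± 0.18, neither called and both chosen after their values were seen. The lineage factor Sox10 (0.02 ± 0.30), Bcas1 (-0.02 ± 0.09) and Ptprz1 (0.06 ± 0.14) had values near 0 whose sign changed under some alternatives, and the precursor marker Pdgfra had -0.15 ± 0.20.

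**Figure D2:**
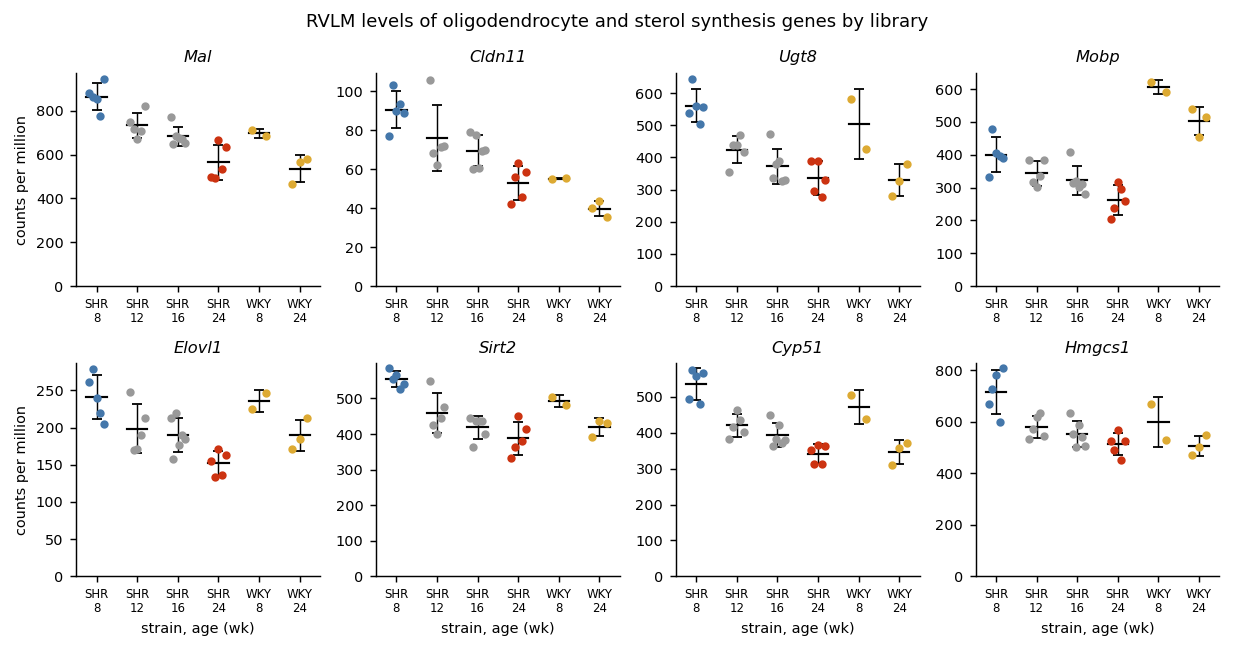
CPM (y axis, from 0) of 8 genes in each RVLM library of number 1, by strain and age in wk (x axis); points are libraries, long bars group means and error bars SD. In SHRs the libraries of 24 wk (red) lie below those of 8 wk (blue) in all 8 panels. The group means of 12 and 16 wk lie between, while many of their libraries overlap those of the other ages.

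Most genes of sterol synthesis also had lower levels at 24 wk, and 2 of them passed the test. Of 26 members 25 passed the filter on low values and were tested, 22 were below 0 beside 45.2% of all genes, the 2 calls were both lower, and the median was -0.27. Cyp51 (ENSRNOG00000007234), which demethylates lanosterol, measured 494, 576, 559, 481 and 567 CPM in the 5 rats of 8 wk and 351, 314, 367, 312 and 363 CPM in those of 24 wk. The ages were well apart, and the level at 8 wk was 1.57 times that at 24 wk (-0.65 ± 0.09, adjusted p = 4.5e-04). Hmgcs1 (ENSRNOG00000016552), which makes HMG-CoA at the head of the pathway, measured 671, 727, 782, 598 and 809 CPM in the 5 rats of 8 wk and 527, 492, 569, 453 and 524 CPM in those of 24 wk, with no overlap (-0.48 ± 0.10, adjusted p = 0.0179). In all, 15 of 25 were lower at an unadjusted p under 0.05 (2.85% of all genes) and 8 of 25 without overlap (1.42%), spread from the first steps to the last. In pathway order these included Pmvk (-0.50 ± 0.13), Idi1 (-0.59 ± 0.16), Fdps (-0.27 ± 0.09), Sqle (-0.24 ± 0.07), Tm7sf2 (-0.54 ± 0.13) and Dhcr7, the enzyme of the last step to cholesterol (-0.41 ± 0.11), none of them called and, apart from Fdps, chosen after their values were seen. Srebf2, the transcription factor of the pathway (-0.06 ± 0.15), and Insig1 (0.01 ± 0.36), which holds back the factor, had values close to 0, and Acly, which supplies acetyl-CoA to fatty acids as well, had 0.11 ± 0.21, with the other sign once the ribosomal level was a covariate. The summed level of the list was 5951.64 to 6880.68 CPM at 8 wk and 5299.43 to 5916.13 CPM at 24 wk, without overlap.

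Because these genes are known to share control by one factor, the bases before their starts are shown for the 3 members with the smallest p among those matched, from RefSeq on build GRCr8, 250 bases each, 5′ to 3′ in the direction of the gene. Capitals mark the 5 bases of a CCAAT box (CCAAT, or ATTGG for the other strand), the site of the factor NF-Y that often works beside the sterol factor. The windows are chr4:30991443-30991692 (plus strand), chr2:53382054-53382303 (plus strand) and chr1:212789542-212789791 (minus strand).
Cyp51: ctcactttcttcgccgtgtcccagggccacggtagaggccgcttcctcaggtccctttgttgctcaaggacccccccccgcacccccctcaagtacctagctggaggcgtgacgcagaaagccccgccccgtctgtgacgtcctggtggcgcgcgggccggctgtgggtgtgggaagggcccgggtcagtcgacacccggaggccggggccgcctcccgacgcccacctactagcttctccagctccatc
Hmgcs1: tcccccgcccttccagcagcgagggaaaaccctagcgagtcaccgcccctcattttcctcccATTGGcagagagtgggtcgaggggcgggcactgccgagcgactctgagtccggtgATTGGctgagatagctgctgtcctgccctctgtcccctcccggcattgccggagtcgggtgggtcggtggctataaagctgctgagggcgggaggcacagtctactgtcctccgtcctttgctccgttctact
Tm7sf2: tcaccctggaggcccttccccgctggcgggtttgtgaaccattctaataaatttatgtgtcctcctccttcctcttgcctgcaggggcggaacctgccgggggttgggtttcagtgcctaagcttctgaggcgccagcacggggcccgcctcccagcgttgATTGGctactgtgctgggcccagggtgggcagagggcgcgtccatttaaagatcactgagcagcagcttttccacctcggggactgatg
Hmgcs1 has 2 such boxes, starting 188 and 133 bases before the start of the gene, Tm7sf2 has 1, 89 bases before it, and in Cyp51 these letters were not in the window. Of the 25 members tested, 18 matched a promoter in the table by symbol, and 15 of these 18 held a CCAAT box, beside 34.3% of all 27457 genes with a promoter (first listed start of each gene) and 7 of 21 myelin genes. Another 6 motifs were searched on both strands. The sterol element TCACNCCAC was in 0 of the 18 (0.976% of all genes), CACCCCAC, which 1 form of it contains, in 1 (2.24%), and the E-box CACGTG in 2 (5.79%). AACAAAG was in 2 (5.01%), ATTGTT in 0 (10.3%) and CCCCNCCCC in 9 (18.8%). Of the 21 myelin genes, 10 held CCCCNCCCC, 6 ATTGTT, 2 AACAAAG, 1 CACGTG and 0 TCACNCCAC or CACCCCAC. These matches describe the windows only.

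The gene with the smallest p was Pnlip (ENSRNOG00000017725), a triglyceride lipase best known from the pancreas. It measured 32.7, 32.5, 37.4, 27 and 28 CPM in the 5 rats of 8 wk and 8.76, 11, 11.8, 11.7 and 15.6 CPM in those of 24 wk. The level at 8 wk was 2.67 times that at 24 wk, and the ages were far apart (-1.42 ± 0.14, adjusted p = 1.1e-06). The transcript AABR07026112.1 (ENSRNOG00000023473), which has no gene name and is given because it was called, fell to a similar degree (-1.26 ± 0.15, adjusted p = 3.6e-05). Casr, the calcium-sensing receptor, measured 3.38, 6.37, 5.58, 5.49 and 4.88 CPM in the 5 rats of 8 wk and 0.438, 0.82, 1.41, 1.49 and 1.59 CPM in those of 24 wk, a 4.31-fold lower level (-2.11 ± 0.33, adjusted p = 0.00105). Capn6, a calpain without protease activity that is known from embryonic muscle, measured 7.36, 6.94, 6.53, 7.29 and 6.47 CPM in the 5 rats of 8 wk and 1.31, 1.54, 2.4, 0.703 and 0.993 CPM in those of 24 wk (-2.29 ± 0.39, adjusted p = 0.00365), and here too no library of 24 wk reached the range of 8 wk. Cldn14, a tight junction claudin, measured 3.58, 2.09, 1.58, 1.69 and 2.35 CPM in the 5 rats of 8 wk and 0, 0.512, 0.332, 0.703 and 0.496 CPM in those of 24 wk (-2.36 ± 0.38, adjusted p = 0.00221). It rests on few reads, and the count of 0 in SHR 24 wk replicate 1 allows a level of up to 0.438 CPM (3 counts, counting error only). Rab7b, a GTPase of late endosomes, measured 7.86, 10.8, 7.58, 6.87 and 7.51 CPM in the 5 rats of 8 wk and 3.8, 3.07, 2.24, 2.64 and 3.67 CPM in those of 24 wk (-1.41 ± 0.20, adjusted p = 5.0e-04). The remaining genes that fell were Nnat, an imprinted proteolipid of the developing brain (-0.70 ± 0.13), Scrg1 (-0.78 ± 0.16), the GTPase Rhoj of endothelium (-0.88 ± 0.16), the cilium gene Cfap52 (-1.33 ± 0.27), the fibrillar collagen Col3a1 (-1.42 ± 0.29), the linker histone Hist1h1c (-0.76 ± 0.16) and the fast muscle myosin Myh2 (-2.14 ± 0.45). Their adjusted p ran from 0.00581 to 0.0268, and in all of them the ages did not overlap. Myh2 and Hist1h1c have near copies in the genome, so that the split of reads among copies leaves their values uncertain, and the mean of Myh2 at 24 wk was 0.45 CPM.

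Among the genes that rose, Wfikkn2, a secreted inhibitor of myostatin, measured 4.38, 3.9, 5.79, 3.7 and 4.41 CPM in the 5 rats of 8 wk and 9.93, 9.84, 10.4, 10.4 and 9.14 CPM in those of 24 wk. Its libraries of 24 wk lay close together and all above those of 8 wk (1.16 ± 0.23, adjusted p = 0.0176). Sema3b, a secreted semaphorin that guides axons, measured 2.78, 4.19, 2.21, 4.12 and 2.72 CPM in the 5 rats of 8 wk and 5.7, 6.56, 9.37, 8.52 and 5.16 CPM in those of 24 wk (1.14 ± 0.22, adjusted p = 0.0104). Oca2, the melanosome protein of the pink-eyed dilution locus, measured 2.69, 3.52, 3.16, 2.85 and 2.81 CPM in the 5 rats of 8 wk and 5.4, 6.25, 7.87, 5.01 and 7.35 CPM in those of 24 wk, at 2.12 times the level of 8 wk (1.08 ± 0.20, adjusted p = 0.00789). Jhy, needed for the cilia of ependymal cells, measured 0.995, 1.998, 1.47, 2.01 and 2.91 CPM in the 5 rats of 8 wk and 5.11, 6.15, 5.06, 4.22 and 4.27 CPM in those of 24 wk (1.39 ± 0.23, adjusted p = 0.00302). The others were Nat8f3, an acetyltransferase from a cluster of near copies whose reads may be split among them (1.03 ± 0.17), the actin-bundling protein Pls1 (0.60 ± 0.11) and the cadherin Cdh23 (1.79 ± 0.40), the last at a mean of 0.4998 CPM at 8 wk and 1.73 CPM at 24 wk. In each of the 8 that rose, the ages did not overlap. Gpnmb, a glycoprotein of activated microglia, and Top1, topoisomerase I, came next among higher genes and were not called (0.75 ± 0.17, adjusted p = 0.0505, and 0.58 ± 0.13, adjusted p = 0.0644).

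With each of the 10 libraries left out in turn, 20 to 29 genes were called, and 17 of the 30 were called each time: Pnlip, AABR07026112.1, Cyp51, Rab7b, Mal, Casr, Cldn14, Nat8f3, Jhy, Capn6, Sirt2, Cldn11, Pls1, Rhoj, Elovl1, Oca2 and Ugt8. The other 13 lost the call without at least 1 library. Nnat lost it only without SHR 8 wk replicate 3, at an adjusted p of 0.0549. Sema3b lost it without SHR 8 wk replicate 3 and SHR 24 wk replicates 3 and 4 (at most 0.062). Hmgcs1 lost it without SHR 8 wk replicates 3 and 5 and SHR 24 wk replicates 2 and 4 (at most 0.0827), Wfikkn2 without SHR 8 wk replicates 2, 4 and 5 and SHR 24 wk replicate 4 (at most 0.0679) and Cfap52 without SHR 8 wk replicate 1 and SHR 24 wk replicates 1, 2 and 4 (at most 0.0814). Mobp lost it without SHR 8 wk replicates 2 and 3 and SHR 24 wk replicates 1, 2 and 5 (at most 0.122), Col3a1 without SHR 8 wk replicates 2, 3 and 5 and SHR 24 wk replicates 1, 4 and 5 (at most 0.085) and Qdpr without SHR 8 wk replicates 3, 4 and 5 and SHR 24 wk replicates 3, 4 and 5 (at most 0.0901). Scrg1 kept the call only without SHR 8 wk replicates 4 and 5 and SHR 24 wk replicate 3 (otherwise at most 0.11), Cdh23 only without SHR 8 wk replicate 3 and SHR 24 wk replicate 1 (0.198), Myh2 only without SHR 8 wk replicates 1, 2 and 5 and SHR 24 wk replicate 1 (0.11) and Hist1h1c only without SHR 8 wk replicates 4 and 5 and SHR 24 wk replicates 4 and 5 (0.126). The direction held for all 30 each time. When all RVLM libraries were used, among them that of the remaining rat of 24 wk, the adjusted p of Cldn11 was 0.308, that of Hmgcs1 0.133 and that of Ugt8 0.127, while Mal (0.0018) and Cyp51 (1.3e-04) were still called.

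In the gene lists of RVLM neurons little passed the test. Of 11 catecholamine genes tested, Qdpr was the only call. Th, the first and rate-limiting enzyme of catecholamine synthesis, measured 32.8, 146, 34.4, 20.7 and 33.2 CPM in the 5 rats of 8 wk and 63.2, 21.6, 58.9, 53.5 and 29.2 CPM in those of 24 wk. Dbh, which makes noradrenaline, measured 7.46, 60.1, 7.8, 3.7 and 9.48 CPM in the 5 rats of 8 wk and 15.3, 6.45, 12.2, 7.47 and 5.86 CPM in those of 24 wk, and Pnmt, which makes adrenaline from it, 10.5, 47.2, 19, 12.7 and 9.38 CPM in the 5 rats of 8 wk and 29.6, 9.63, 28.5, 20.8 and 16 CPM in those of 24 wk. SHR 8 wk replicate 2 was the highest library of its age in all 3 and also in the transporters Slc18a2 (13.4, 55.8, 19.4, 11.6 and 18.2 CPM at 8 wk) and Slc6a2 (1.59, 16.2, 1.58, 1.37 and 2.35 CPM at 8 wk). The log2 fold changes were -0.24 ± 0.56 for Th, -0.92 ± 0.64 for Dbh, 0.08 ± 0.56 for Pnmt, -0.58 ± 0.36 for Slc18a2 and -1.36 ± 0.69 for Slc6a2, and in Th and Pnmt the SE was larger than the difference. Without that library the values for Th and Dbh were 0.58 and 0.40, the other sign, also uncalled. The sign of Th turned with the replicate number as a block too, that of Pnmt in limma voom and without each of 5 other libraries in turn, and those of Slc18a2 and Slc6a2 without SHR 8 wk replicate 2. Whether it holds more of the adrenergic cell group than the other punches was not tested. Ddc (-0.22 ± 0.16), Gch1 (-0.27 ± 0.39), Maob (0.17 ± 0.14) and Maoa (-0.00 ± 0.11, a sign that turned under several alternatives) were not called.

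**Figure D3:**
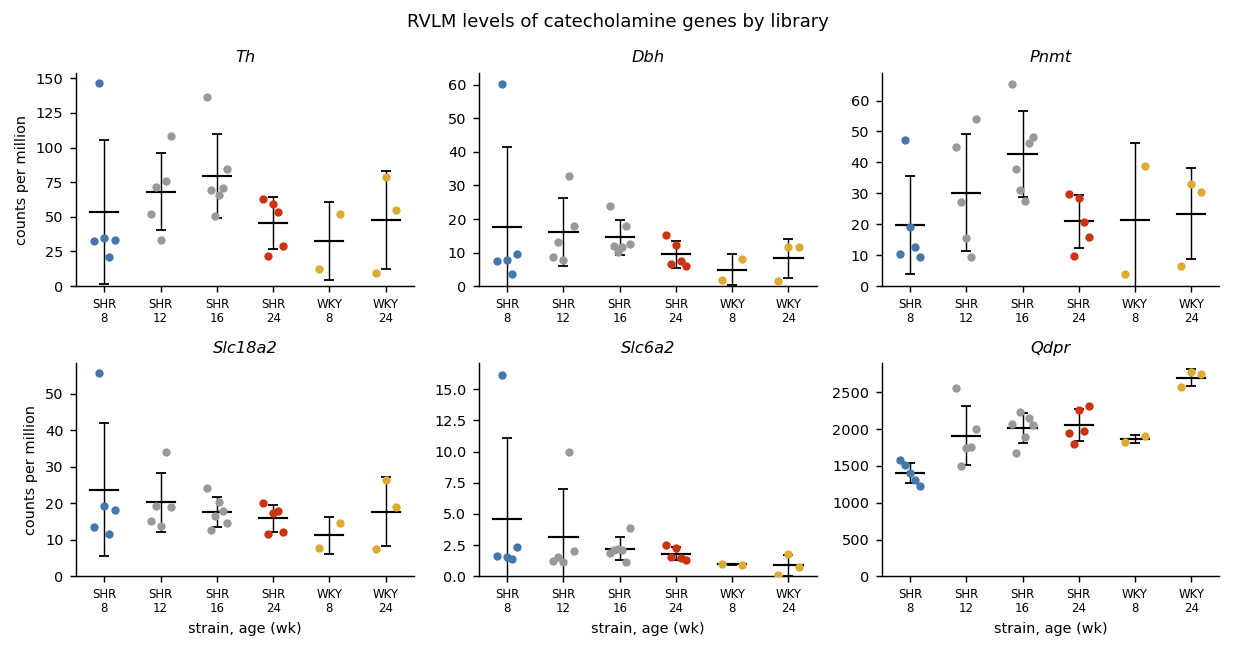
CPM (y axis, from 0) of 6 catecholamine genes in each RVLM library of number 1, by strain and age in wk (x axis); points are libraries, long bars group means, and error bars SD, not drawn below 0. SHR 8 wk replicate 2 lies far above the other 4 blue points in all panels but that of Qdpr.

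No gene was called among 23 of glutamate transmission (median 0.16), 24 of GABA and glycine (0.07), 34 potassium channels (0.08), 9 sodium channels (0.07), 14 calcium channels (0.16), 32 neuropeptides and receptors (0.00), 8 of the renin-angiotensin system (-0.10) or 6 adrenergic receptors (-0.09). At an unadjusted p under 0.05 these 8 lists held 5 higher genes and 1 lower gene of 150, beside 3.03% and 2.85% of all genes. The median SE of 0.19 limits what could be detected in a single gene.

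Several other groups leaned one way without calls. Of 27 microglial genes, 21 were above 0 (median 0.21) beside 54.8% of all genes, 8 were higher at an unadjusted p under 0.05 beside 3.03% of all genes, and none was called. In the RVLM of WKY rats their median was 0.28, with 22 of 27 above 0. In SHRs it was 0.30 in the NTS and 0.42 in the CVLM, where 2 of them were called higher. Of all genes in the CVLM, 0.403% were called in either direction and 0.283% lower. Csf1r, the receptor that microglia need to survive, had 0.40 ± 0.16, Cx3cr1 0.33 ± 0.16, Tmem119 0.42 ± 0.18, Trem2 0.43 ± 0.18 and Ctss 0.25 ± 0.13, whereas the abundant members Apoe (-0.16 ± 0.18) and Spp1 (-0.14 ± 0.24) were below 0, Spp1 above 0 in limma voom. Cx3cr1, Tmem119 and Trem2 were chosen after their values were seen. The summed level of the list overlapped between the ages, at 4058 to 6382 CPM at 8 wk and 3805 to 5582 CPM at 24 wk. Its median library was at 5384 and 5086 CPM, the other direction from the median gene. Apoe alone had means of 4376 and 3904 CPM, so the sum mostly follows Apoe and says little of the other members.

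Cytosolic ribosomal protein genes were below 0 in 79 of 80 (median -0.32) and those of mitochondrial complex I in 34 of 35 (median -0.32). The share of all genes below 0 was 45.2%, and again neither list had a call. Of the ribosomal genes, 3 of 80 were lower at an unadjusted p under 0.05, near the 2.85% of all genes, and 13 of 80 were lower without overlap, beside 1.42%. Their summed level overlapped, with 6117 to 8000 CPM at 8 wk and 5084 to 6501 CPM at 24 wk. It ran from 4054 to 14829 CPM among the SHR libraries of 12 wk alone. Of the complex I genes, 0 of 35 were lower at an unadjusted p under 0.05 and 2 of 35 without overlap. From 12 to 16 wk, 78 of 80 ribosomal and 35 of 35 complex I genes were below 0, beside 53.6% of all genes. The members shifted together between libraries, so their signs are not independent. Rpl41 had -0.46 ± 0.29, Ndufb9 -0.33 ± 0.21 and Ndufv2 -0.22 ± 0.18. An alternative added after the data were seen took the summed ribosomal level of each library as a covariate. This covariate is made of the ribosomal genes themselves, so their median of 0.00 was set in advance. The complex I median was 0.00 too, with Ndufv2 at 0.03. The complex I sum was lowest and highest in the same SHR libraries of 12 wk as the ribosomal sum, so its median is not a separate result. In that fit 43 genes were called. The myelin and sterol medians were -0.34 and -0.26, with 7 and 4 genes called lower. What sets the ribosomal level of a library was not tested.

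Some genes of the vessel wall, meninges and blood also had lower levels. Among 19 leptomeningeal genes, 17 were below 0 beside 45.2% of all genes (median -0.35), with Col3a1 called, Col1a1 at -1.34 ± 0.48 and Dcn at -0.46 ± 0.21. Their summed level overlapped, at 701 to 791 CPM and 611 to 740 CPM. Of 23 genes for collagens and matrix (median -0.21), 17 were below 0, 7 were lower at an unadjusted p under 0.05 beside 2.85% of all genes, and Col3a1 was again the only call. In the RVLM of WKY rats the medians of the leptomeningeal and matrix lists were -0.33 and -0.61. In SHRs they were -0.23 and -0.04 in the NTS, and -0.08 and -0.09 in the CVLM. Among 24 endothelial genes 14 were below 0 and 10 above (median -0.05), 7 were lower at an unadjusted p under 0.05 beside 2.85% of all genes, and none was called. The summed endothelial level did not overlap, with 2227 to 2594 CPM at 8 wk and 2032 to 2177 CPM at 24 wk. In the RVLM of WKY rats the endothelial median was -0.27, with 20 of 24 genes below 0 beside 50% of all genes. In SHRs it was -0.15 in the NTS and -0.01 in the CVLM. Of 7 genes of the blood list, the haemoglobins Hba-a1 (-0.94 ± 0.27), Hba-a2 (-1.01 ± 0.28) and Hbb (-0.85 ± 0.27) did not overlap, beside 1.42% of all genes lower without overlap, and were not called. Of the other 4, Alas2 (-0.63 ± 0.33) and Ngb (-0.16 ± 0.12) were below 0 and Cygb (0.09 ± 0.25) above, and Hba-a3, also above 0, had no reads at 8 wk and a mean of 0.0199 CPM at 24 wk, too few for a fold change. The summed level of the list was 587 to 1110.3 CPM at 8 wk and 379 to 507 CPM at 24 wk. The median of the blood list was -0.63 in the RVLM of SHRs and -0.48 in that of WKY rats, where 7 of 7 genes were below 0. In SHRs it was -0.00 in the NTS and -0.02 in the CVLM. Hba-a1 and Hba-a2 are near copies of each other. The part of blood and vessels in the differences of Col3a1 and Rhoj was not tested. Astrocyte genes had a median of -0.01 over 18 genes, with no call.

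**Figure D4:**
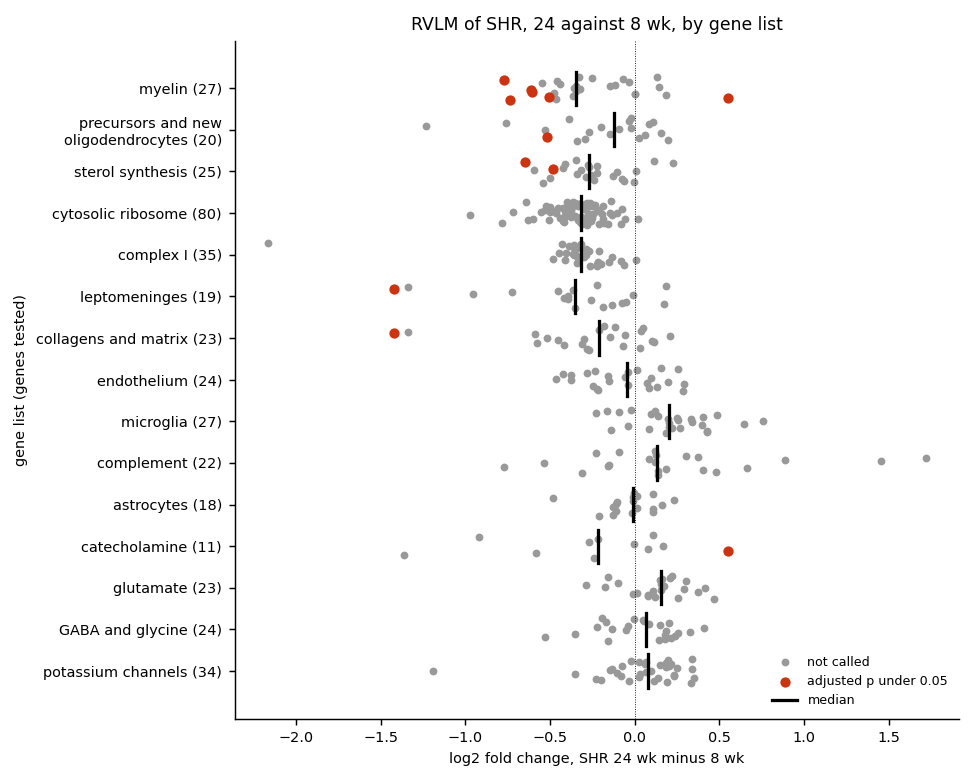
Log2 fold change (SHR 24 wk minus 8 wk, x axis) of each tested gene of 15 lists (y axis, number of genes in parentheses); red points were called at an adjusted p under 0.05 and black bars are list medians. The medians of myelin, sterol synthesis, ribosome, complex I and leptomeninges lie between -0.35 and -0.27, and those of the glutamate, GABA and glycine, and potassium channel lists above 0.

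The ages between showed how the levels passed from 8 to 24 wk. These contrasts share the rats of 8 wk with the main one, so their values are given side by side only. At 12 wk 3 genes (0.0224%) and at 16 wk 12 genes (0.0895%) were called against 8 wk. Pnlip stood at -0.82 at 12 wk, -1.19 at 16 wk and -1.42 at 24 wk. Cyp51 passed through -0.35 and -0.44 to -0.65, and Ugt8 through -0.40 and -0.59 to -0.74. Casr was already at -1.86 at 12 wk, and Cdh23 at 1.46. Sema3b, by contrast, was at 0.10 at 12 wk and 0.81 at 16 wk.

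The libraries of 12 wk (n = 5) and 16 wk (n = 6) are independent of the 10 compared here. Between them no gene was called, with 342 genes (2.55%) at an unadjusted p under 0.05 and 3 called by DESeq2. Of the 30 genes, 25 had the same sign from 12 to 16 wk as from 8 to 24 wk, beside 59.3% of all other genes. The 5 exceptions, AABR07026112.1, Casr, Cldn14, Rhoj and Col3a1, had differences smaller than their SE. An unadjusted p under 0.05 was reached by 7 of the 30, Pnlip, Rab7b, Capn6, Oca2, Sema3b, Cfap52 and Hist1h1c, with the largest difference in Capn6 (-0.90 ± 0.38) and 0.72 ± 0.21 in Sema3b. Ugt8 had -0.19 ± 0.13 and Pnlip -0.37 ± 0.13. The myelin median was -0.04 and the sterol median -0.02, with 20 of 27 and 15 of 25 genes below 0 beside 53.6% of all genes, and the median of all genes at -0.01.

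The age difference was also measured in the RVLM of WKY rats, with 2 libraries of 8 wk and 3 of 24 wk. There 9 genes (0.0671%) were called, and 4 of them were among the 30 of SHRs, which is 44.4% of the 9 and 13.3% of the 30. These were Casr (-2.63 ± 0.49), Pnlip (-0.99 ± 0.20), Nat8f3 (1.44 ± 0.25) and Pls1 (0.89 ± 0.16), each in the same direction as in SHRs. Of the 30 genes, 29 had the same sign in both strains, beside 54.4% of all other genes, and the exception was Cldn14 at 0.01 ± 0.68 in WKY rats. Mal had -0.38 ± 0.13 in WKY rats, Ugt8 -0.61 ± 0.20 and Cyp51 -0.45 ± 0.13, none called there. The WKY medians of the myelin and sterol lists were -0.16 and -0.18, with 19 of 27 and 20 of 25 genes below 0, beside 50% of all genes and a median of 0.00.

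A test of the difference between the strains, the interaction of strain and age, called no gene, with 704 genes (5.25%) at an unadjusted p under 0.05 and 9 called by DESeq2. Of the 30 genes, 4 had an unadjusted p under 0.05. The 30 were picked by their age difference in SHRs, which is 1 side of this test, so this count cannot be set against the share of all genes. In Rab7b the difference between the strains (SHR minus WKY) was -1.30 ± 0.36 (unadjusted p = 0.00123), in Cldn14 -2.37 ± 0.79 (0.00578), in Rhoj -0.85 ± 0.28 (0.00541) and in Cfap52 -1.05 ± 0.47 (0.0342). The smallest adjusted p among the 30 was 0.781. In these 4 genes both WKY libraries of 8 wk were below every SHR library of that age. Rab7b measured 4.12 and 3.96 CPM in the 2 WKY rats of 8 wk and 3.16, 3.74 and 4.37 CPM in the 3 of 24 wk, and Cldn14 0.325 and 0.521 CPM and 0.253, 0.416 and 0.607 CPM, from 2 to 5 reads per library. The median SE of this interaction over all genes was 0.34, so that only large differences between the strains were detectable.

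In the NTS and CVLM of the same 10 rats the same genes were read again. They come from the same animals, so they do not add rats. The NTS had 23 genes called (0.167%) and the CVLM 54 (0.403%). Of the 30 RVLM genes, 12 were also called in the NTS (40% of the 30 and 52.2% of the 23) and 16 in the CVLM (53.3% of the 30 and 29.6% of the 54). The sign was the same as in the RVLM for 28 of 29 genes with a value in the NTS and 29 of 30 in the CVLM, beside 64.3% and 60.9% of all other genes. The exception in both was Rhoj, at 0.31 ± 0.18 in the NTS and 0.03 ± 0.23 in the CVLM. Among the genes called in all 3 regions were Pnlip, AABR07026112.1, Cyp51, Hmgcs1, Jhy, Cldn11, Elovl1, Ugt8 and Scrg1. Ugt8 had -1.09 ± 0.18 in the NTS and -1.02 ± 0.13 in the CVLM, Cyp51 -0.57 ± 0.08 and -0.79 ± 0.08, and Pnlip -1.31 ± 0.16 and -1.29 ± 0.14, all of them called. Of the 25 sterol and 27 myelin genes tested in the RVLM, 11 and 8 were called lower in the CVLM (medians -0.37 and -0.30). In the NTS 2 and 4 were called lower (medians -0.22 and -0.43). The shares of all genes called lower were 0.283% in the CVLM and 0.145% in the NTS. Qdpr, of the myelin list, was called higher in the CVLM (0.86 ± 0.10). The label of 1 CVLM library of 8 wk gives its age as 10 wk against its title, and it was kept at 8 wk by the title.

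Whether the age difference of the RVLM differed from that of the other regions was tested with the rat as a block, over 10 rats. No gene was called for the NTS (511 genes, 3.66%, at an unadjusted p under 0.05, and 5 called by DESeq2) or for the CVLM (450 genes, 3.3%, and 0 by DESeq2). Of the 30 genes, 10 had an unadjusted p under 0.05 against the NTS and 6 against the CVLM. The 30 were picked by their age difference in the RVLM, which is 1 side of these tests. Their counts are therefore raised by the choice and cannot be set against the shares of all genes. The difference between the regions (RVLM minus NTS) was -1.21 ± 0.24 (unadjusted p = 1.1e-04) in Rhoj, -1.47 ± 0.32 (3.1e-04) in Capn6, -0.63 ± 0.14 (3.2e-04) in Nnat and -1.83 ± 0.41 (3.9e-04) in Casr, the smallest adjusted p among the 30 being 0.35. For the myelin genes Mal, Cldn11 and Mobp these differences were -0.01 ± 0.15, 0.10 ± 0.22 and -0.05 ± 0.20, each smaller than its SE, and for Cyp51 -0.10 ± 0.12. In Ugt8 it was 0.36 ± 0.16 (unadjusted p = 0.0461), with the larger fall in the NTS. Against the CVLM the 6 genes were AABR07026112.1, Casr, Rhoj, Qdpr, Myh2 and Cdh23, with -0.85 ± 0.32 in Rhoj, -0.88 ± 0.38 in Casr and -0.30 ± 0.13 in Qdpr, none called.

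**Figure D5:**
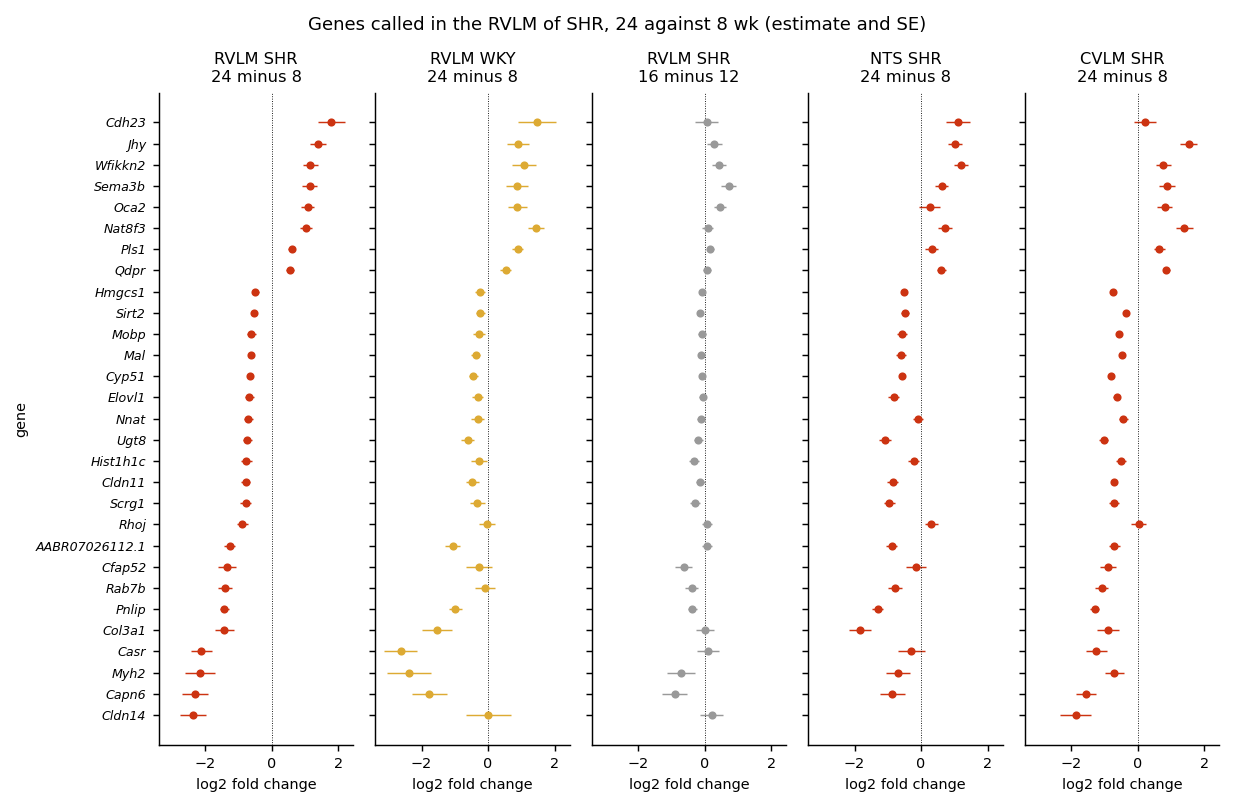
Log2 fold change with its SE (x axis) of 29 of the 30 genes called in the RVLM of SHRs (y axis, sorted by that change) in 5 comparisons, ages in wk; Cldn14 was not tested in the NTS. Most points keep the side of 0 of the first panel. On the other side are Cldn14 at 0.01 in WKY rats and Rhoj at 0.31 in the NTS and 0.03 in the CVLM. In the panel of 16 minus 12 wk these are AABR07026112.1, Casr, Cldn14, Rhoj and Col3a1, each by less than its SE.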

How the data were processed

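Punches of the RVLM, NTS and CVLM of 46 female rats gave 138 RNA-seq libraries. The authors mapped paired-end reads to the rat genome rn6 with STAR within RSEM, and the deposited tables hold RSEM expected counts per gene, not normalized, with Ensembl identifiers and symbols. A ComBat_seq batch adjustment is named in the study's methods, and whether it is in these tables is not given in the sources used here. Of the RVLM values, 4.88% were not whole. If an adjustment is in the values, differences that run with a batch were altered before deposit. How the reads were stranded is not given in the sources used here.

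Here, expected counts were rounded and tested with edgeR 4.0.16 (R 4.3.3; TMM, estimateDisp, robust glmQLFit, glmQLFTest). The fit held 32 RVLM libraries with the number 1 in 8 groups of strain and age, 2 to 6 rats each. Genes with a largest regularized log (rlog) value of at least 3.5 entered, 13411 of 32883. Calls were made where the adjusted p was under 0.05. Region differences were fitted with the rat as a block, over 13976 genes with the NTS and 13636 with the CVLM. DESeq2 1.42.0, limma 3.58.1, other scalings, filters, libraries and thresholds, and the omission of each library were alternatives. Across all pairs of libraries within the 2 groups, no pair agreed within sampling noise. The script was tested on simulated data.

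Samples were grouped by title, and 1 CVLM library whose age label differs from its title was placed by the title. The members and gene lists were chosen with earlier results of these data known. The rule for named genes took, per direction, the 15 called genes with the largest change (a mean of at least 1 CPM and a gene name), or the 10 with the smallest p where fewer than 10 were called, with called list members, the 4 members of highest CPM of each list discussed and all tested catecholamine genes. Some genes, 1 of the 30 called among them, are not reported here and stay in the counts. Most other genes named are said to be chosen after their values were seen, and AABR07026112.1 is named because it was called. Srebf2, Insig1, Pdgfra, Col1a1, Dcn and the genes of the blood list are also outside this rule and are named without such a statement. Of 42 lists, those not mentioned had no call. Promoters (RefSeq, GRCr8) were matched by symbol, and the tables' coordinates are not those of rn6. Figures were drawn with matplotlib 3.10.9.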

Additional observations from a re-analysis of the deposited data

Results flagged for a closer look

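In 61 genes and both ages of SHRs, 8 of 122 sets of 5 libraries had 1 library set far from the other 4, where chance gives about 1 in 20. SHR 8 wk replicate 2 was the high library in 6 of them. It measured 146 CPM of Th (20.7 to 34.4 in the others), 60.1 CPM of Dbh (3.7 to 9.48), 47.2 CPM of Pnmt (9.38 to 19), 55.8 CPM of Slc18a2 (11.6 to 19.4), 16.2 CPM of Slc6a2 (1.37 to 2.35) and 10.8 CPM of Rab7b (6.87 to 7.86). SHR 24 wk replicate 2 had 5.74 CPM of Rhoj (3.69 to 3.97 in the others), and SHR 8 wk replicate 1 had 3.78 CPM of Col3a1 (6.76 to 7.32).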

How the results depend on the processing

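The 30 genes called between 24 and 8 wk became 33 with RLE scaling, 31 with filterByExpr, 29 without a filter, 21 with only the 2 groups in the fit (17 shared with the 30) and 43 with the added ribosomal covariate (29 shared). They became 48 with all RVLM libraries (26 shared) and 48 with the library number as a term (28 shared), 102 in limma voom with quality weights (30 shared) and 63 in DESeq2 (30 shared). A threshold of 0.01 on the adjusted p with a minimum fold of 2 left 9, and 0.05 with a minimum fold of 1.5 left 26. Leaving out 1 library gave 20 to 29. The interaction with strain, at 0 calls, gave 1 with all RVLM libraries and 9 in DESeq2. The test of RVLM minus NTS gave 5 in DESeq2 and 0 to 1 with a rat left out, the 1 without SHR 8 wk replicate 3. The comparison of 16 and 12 wk gave 3 in DESeq2, and that of RVLM minus CVLM 0 throughout.

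The deviations of same-numbered rats of 8 and 24 wk from their group means correlated over genes at r = 0.063, -0.04, 0.601, 0.566 and -0.12 for numbers 1 to 5, beside a best r with another number of 0.175, 0.126, 0.49, 0.313 and 0.206. Numbers 3 and 4 correlated best with their own number and the other 3 did not, so the numbers were not taken to pair the libraries. With the replicate block 32 genes were called (28 shared), and the strain interaction and 16 against 12 wk stayed at 0 calls.

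Of 600 values of the 30 called genes over the alternatives, 509 kept direction and call, 91 lost the call and 0 changed sign. Of 620 values of the other 31 named genes, 36 changed sign. With the ribosomal covariate these were Rpl19 (0.0060), Ndufv2 (0.0342), Rpl3 (0.0265), Ndufb8 (0.14), Acly (-0.0316), Ptprz1 (-0.0639) and Sox10 (-0.14). In limma voom they were Spp1 (0.0548), Pnmt (-0.31) and Sox10 (-0.0395), with the replicate block Th (0.0604), and with the number as a term Sox10 (-0.0044) and Maoa (0.0185). Maoa was at 0.11 with all RVLM libraries and 0.0002 with only the 2 groups. With 1 library left out, the log2 fold change ran over -0.45 to 0.58 for Th, -1.18 to 0.40 for Dbh, -0.0998 to 0.70 for Pnmt, -1.59 to 0.0535 for Slc6a2, -0.75 to 0.0169 for Slc18a2, -0.0656 to 0.0295 for Bcas1, -0.0497 to 0.13 for Ptprz1, -0.18 to 0.19 for Sox10 and -0.0941 to 0.0388 for Maoa. The causes were not tested. With 5 rats per age and 2 or 3 WKY rats, the median SE was 0.19 in SHRs, 0.28 in WKY rats and 0.34 for their difference, which sets the size of difference that could be detected.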
